A study of Mus musculus with 10 samples.

Results

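The erythroid genes described here are 9 genes that serve red cell formation, chosen by symbol: Gata1, Klf1, Epor, Alas2, Ahsp, Slc4a1, Rhag, Car1 and Car2. A probe set with exactly 1 annotated symbol was found for 8 of the 9, out of 19938 genes measured in this way. Ahsp was not matched and is not analysed here, and each of the 8 others had 1 such probe set. The study profiled OBCs, cells of the osteoblastic (bone-building) lineage, on 10 Affymetrix Gene ST 1.0 arrays with 1 mouse per array. The 5 BA mice carried Scl-tTA::TRE-BCR/ABL, in which a transactivator under Scl control switches on BCR/ABL when doxycycline is removed. These mice develop a myeloproliferative disease. The 5 mice of the other group are labelled control and were age-matched, with no further genotype given in the labels. All 10 mice were C57BL/6, came off doxycycline at 5 weeks of age and were sampled 5 to 6 weeks later. The cells were sorted after staining for CD31, Sca-1, CD45, CD51 and lineage antigens, among them Ter119, an antigen of erythroid cells. The gates themselves are not stated in the labels.

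The values are GCRMA signals on a log2 scale, so that a difference of 1 means 2-fold, and every difference below is BA minus control. The array medians lay between 5.91 and 6.02. A probe set's signal depends on its probes as well as on the RNA, so levels are compared between arrays and not between genes. The osteoblast markers Col1a1 and Col1a2, the chains of type I collagen, averaged 9.40 ± 0.78 and 9.47 ± 0.75 in BA cells, against 10.65 ± 0.33 and 10.63 ± 0.12 in control cells (SD, n = 5 each). The 3 other osteoblast markers measured did not follow them, with differences of 0.47 for Alpl, 0.03 for Sp7 and -0.01 for Ibsp, and the list of 5 had a median of -0.01, with 2 higher in BA cells and 0 called. Sox9, a factor of cartilage cells, lay between 11.35 and 11.52 on BA arrays and between 11.07 and 11.49 on control arrays. The 8 cartilage cell markers measured had a median difference of 0.17, with 7 higher in BA cells, 1 lower and 0 called. Their mean level lay between 9.82 and 10.43 on BA arrays and between 9.46 and 10.23 on control arrays. Over all genes the mean was lower in BA cells for 62.1%. The leukocyte gene Ptprc (CD45) stood at 9.29 on BA replicate 5 and between 5.54 and 5.90 on the other 9 arrays. In such bulk samples fewer cells of a type and less RNA per cell cannot be told apart.

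Red cells form in the marrow from progenitors that answer to erythropoietin. The transcription factors GATA1 and KLF1 then switch on the genes for haemoglobin, for haem synthesis and for the red cell membrane. GATA1 binds DNA at sites built around the letters GATA, often near sites for KLF1 and for the SCL (TAL1) complex. The Scl-tTA transgene of the BA mice is named after the gene of SCL. Red cells carry carbon dioxide with the help of carbonic anhydrase and of band 3, an anion exchanger.

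Promoter windows from RefSeq (build GRCm38.p6, 250 bases before to 50 after a gene's start) were matched by symbol for 5 of the 8 genes. The letters AGATAA or TGATAA, read on both strands, were found in 4 of the 5, and in 18.6% of the 32851 windows of the whole table. The 250 bases before the start are shown for these 4 genes, 5′ to 3′ on the gene's own strand, so that the GATA letters can be seen in place. The capitals mark the match, which in all 4 lies on the opposite strand and so reads TTATCT or TTATCA.
Klf1 (chr8:84901732-84901981, plus strand): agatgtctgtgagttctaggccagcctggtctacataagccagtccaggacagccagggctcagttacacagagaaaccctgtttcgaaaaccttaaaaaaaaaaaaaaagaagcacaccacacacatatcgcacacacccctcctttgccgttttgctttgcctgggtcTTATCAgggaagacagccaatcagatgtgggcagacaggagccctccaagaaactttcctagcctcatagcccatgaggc
Epor (chr9:21963577-21963826, minus strand): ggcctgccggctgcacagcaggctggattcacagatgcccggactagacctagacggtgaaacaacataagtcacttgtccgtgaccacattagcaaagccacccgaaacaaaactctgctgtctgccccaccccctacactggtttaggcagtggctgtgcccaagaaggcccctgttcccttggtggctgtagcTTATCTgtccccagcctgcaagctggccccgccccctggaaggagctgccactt
Alas2 (chrX:150547167-150547416, plus strand): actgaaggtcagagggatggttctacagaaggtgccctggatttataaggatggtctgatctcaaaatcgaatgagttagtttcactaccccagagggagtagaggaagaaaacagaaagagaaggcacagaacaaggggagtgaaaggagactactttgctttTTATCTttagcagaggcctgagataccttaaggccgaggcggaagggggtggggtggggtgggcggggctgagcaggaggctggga
Rhag (chr17:40810899-40811148, plus strand): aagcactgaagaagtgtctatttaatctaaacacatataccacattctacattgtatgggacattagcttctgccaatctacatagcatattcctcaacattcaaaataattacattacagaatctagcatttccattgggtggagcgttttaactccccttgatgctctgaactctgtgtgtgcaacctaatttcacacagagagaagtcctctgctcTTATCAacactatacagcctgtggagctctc
The match began at position -80 in Klf1, -54 in Epor, -86 in Alas2 and -31 in Rhag, where -1 is the base before the annotated start. In the Gata1 window neither form was present. The pattern CCNCNCCC, a form of the KLF1 site in which N is any base, was found on either strand in the windows of Gata1, Epor and Alas2, and in 49.5% of all windows. Its matches overlapped each other in Epor and Alas2. The E-box pattern CANNTG, which the SCL complex can bind, was found in the windows of Gata1, Klf1 and Epor, and in 72.3% of all windows. These are matches of letters and not measured binding sites.

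None of the 8 erythroid genes passed the threshold of 0.05 for the adjusted p in limma, fitted and adjusted over all 19938 genes (0 of 8, adjusted p from 0.484 to 0.786). Over all genes 1 passed in either direction, which is 0.00502%. That gene was Snord38a, a small nucleolar RNA gene, and no gene was called higher without control replicate 2, control replicate 5, BA replicate 3 or BA replicate 5. The mean was lower in BA cells for 7 of the 8 genes and higher for Car1, while 62.1% of all genes had a lower mean in BA cells. The median difference of the 8 genes was -0.36, beside -0.06 over all genes. Klf1, Rhag and Car2 were dim, with a mean level not above the median of all genes. Gata1, from 6.25 to 6.90, and Epor, from 6.24 to 6.72, also lay near the array medians of 5.91 to 6.02. So did Alas2 outside control replicate 2, from 6.01 to 6.28, and no detection calls were used. Among genes with a mean above the median of all genes, the difference had a median of -0.002. There 5 of the 8 genes remained, 4 of them lower in BA cells, with a median of -0.33. At an unadjusted p under 0.05 there were 3 of the 8 genes, Gata1, Epor and Slc4a1, all with the lower mean in BA cells, against 5.27% of all genes that were lower at that level. That count was 1, Gata1 alone, without control replicate 4, BA replicate 1, BA replicate 2, BA replicate 3 or BA replicate 5, and with arrays centred on their median. It was also Gata1 alone with trend and robust eBayes, among genes with a mean above the median, and with the pan-haematopoietic level as a covariate. Without control replicates 2 and 4 together it was again Gata1 alone, and without control replicate 2 and BA replicate 5 together the count was 0. Both pairs were chosen after seeing the data. Under the other alternatives the count was 2 or 3. Epor was the 1 gene of the 8 with every BA array below every control array, which held for 1.1% of all genes.

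**Figure D1:**
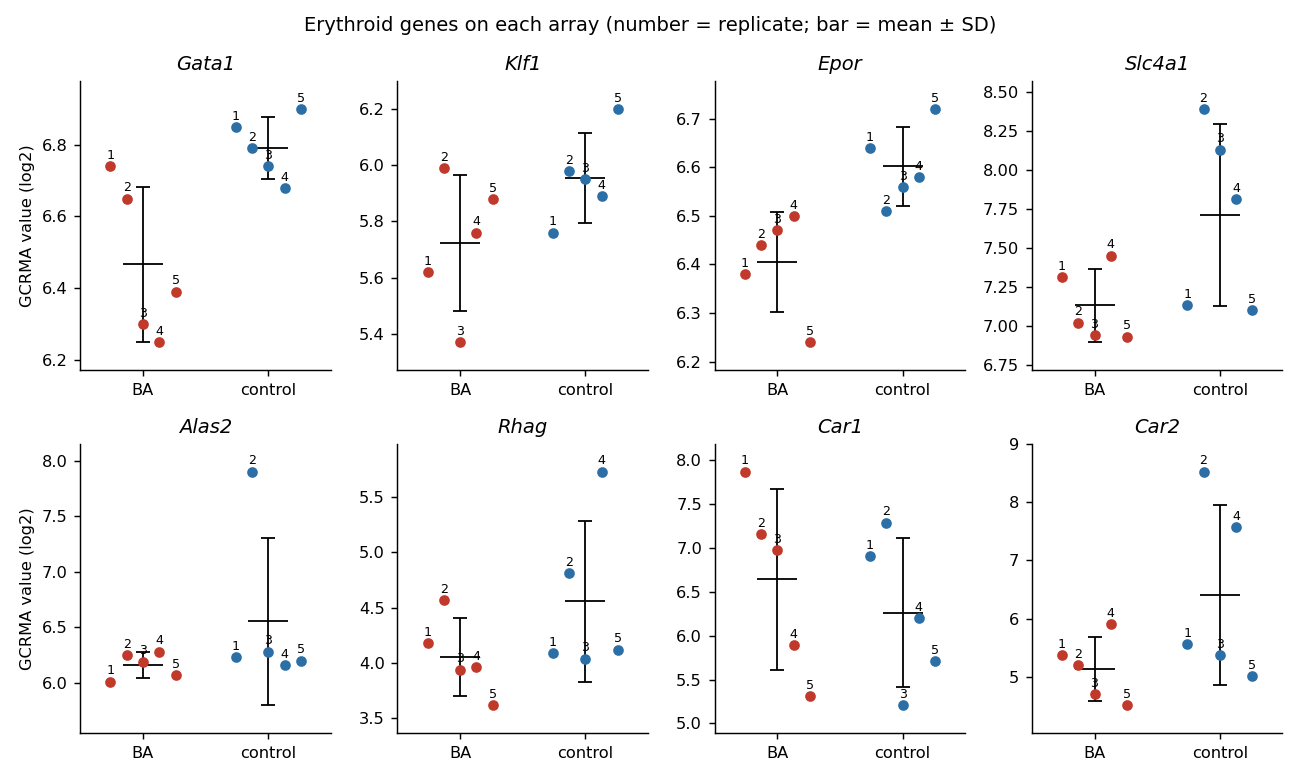
GCRMA values (log2, vertical axes differ between panels) of the 8 erythroid genes on each array, BA arrays in red and control arrays in blue, each point labelled with its replicate number, with the mean ± SD of each group in black. Epor is the gene whose groups do not overlap, while Slc4a1, Alas2, Rhag and Car2 have their highest points on control replicate 2 or 4.

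Gata1, the X-linked gene of a factor needed by the erythroid, megakaryocytic and mast cell lines, had 6.74, 6.65, 6.30, 6.25 and 6.39 on BA replicates 1 to 5, against 6.85, 6.79, 6.74, 6.68 and 6.90 on control replicates 1 to 5. Of the BA arrays, 4 lay below every control array, and BA replicate 1 lay within the control range. The difference was -0.33 ± 0.12 (SE), with a 95% interval from -0.58 to -0.07 and an adjusted p of 0.484, the smallest among the 8 genes. Klf1, the gene of the factor that activates adult globin and many late erythroid genes, had 5.62, 5.99, 5.37, 5.76 and 5.88 on the BA arrays, against 5.76, 5.98, 5.95, 5.89 and 6.20 on the control arrays. The groups overlapped, with 2 BA arrays below the lowest control array and the 3 others inside the control range. The Klf1 difference was -0.23 ± 0.13, with an interval from -0.53 to 0.06 that includes 0 (adjusted p = 0.56), and it was -0.14 without BA replicate 3.

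Epor, the erythropoietin receptor gene, had 6.38, 6.44, 6.47, 6.50 and 6.24 on BA replicates 1 to 5, against 6.64, 6.51, 6.56, 6.58 and 6.72 on control replicates 1 to 5. The groups were apart by 0.01, between BA replicate 4 and control replicate 2, which is the last decimal of the deposited values. The spread within each group was small, with means of 6.41 ± 0.10 in BA cells and 6.60 ± 0.08 in control cells (SD, n = 5 each). The difference of -0.20 ± 0.09 had an interval from -0.39 to -0.0047 and did not pass (adjusted p = 0.525).

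Alas2, the X-linked gene of the erythroid enzyme that starts haem synthesis, had 6.01, 6.25, 6.19, 6.28 and 6.07 on BA replicates 1 to 5, against 6.23, 7.90, 6.28, 6.16 and 6.20 on control replicates 1 to 5. Control replicate 2 stood alone, and the other 9 arrays lay between 6.01 and 6.28. The difference was -0.39 ± 0.31, with an interval from -1.08 to 0.29 (adjusted p = 0.636). Without control replicate 2 it was -0.06 (adjusted p = 0.800).

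Slc4a1, the gene of band 3, which exchanges anions across the red cell membrane and anchors its skeleton, had 7.31, 7.02, 6.94, 7.45 and 6.93 on BA replicates 1 to 5, against 7.13, 8.39, 8.13, 7.81 and 7.10 on control replicates 1 to 5. Control replicates 2, 3 and 4 lay above every BA array, while control replicates 1 and 5 lay within the BA range. The difference was -0.58 ± 0.26, with an interval from -1.15 to -0.01 (adjusted p = 0.526). Rhag, the gene of the Rh-associated glycoprotein, an ammonium transporter of the red cell membrane, had 4.18, 4.57, 3.94, 3.96 and 3.62 on the BA arrays, against 4.09, 4.81, 4.04, 5.73 and 4.12 on the control arrays. Control replicates 4 and 2 were the 2 highest of the 10, and the 3 other control arrays lay among the BA arrays. The Rhag difference was -0.50 ± 0.32, with an interval from -1.22 to 0.22 (adjusted p = 0.589), and it was -0.21 without control replicate 4. It was -0.03 without control replicates 2 and 4, a pair left out after their high values had been seen.

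Car1 and Car2 encode cytosolic carbonic anhydrases, which turn carbon dioxide into bicarbonate, and both genes lie on chromosome 3. Car2 is also an enzyme of osteoclasts, the bone-resorbing cells. Car1 had 7.87, 7.16, 6.98, 5.89 and 5.31 on BA replicates 1 to 5, against 6.91, 7.29, 5.21, 6.20 and 5.71 on control replicates 1 to 5. The groups overlapped over most of their range, and the highest array was BA replicate 1. The Car1 difference of 0.38 ± 0.53 had an interval from -0.80 to 1.55 (adjusted p = 0.786), and it depended on single arrays of both groups. It was 0.07 without BA replicate 1, 0.25 without BA replicate 2 and 0.71 without BA replicate 5, and 0.63, 0.11 and 0.24 without control replicates 2, 3 and 5 in turn. Car2 had 5.37, 5.20, 4.70, 5.90 and 4.52 on the BA arrays, against 5.56, 8.52, 5.37, 7.57 and 5.01 on the control arrays. Control replicates 2 and 4 stood above the rest, and the other 8 arrays lay between 4.52 and 5.90. Car2 had the largest difference of the 8 genes in size and the widest interval, -1.27 ± 0.65 with an interval from -2.71 to 0.17 (adjusted p = 0.54). It was -0.74 without control replicate 2 and -0.18 without control replicates 2 and 4, a pair left out after their high values had been seen, which had to shrink it. The opposite signs of Car1 and Car2 were not tested against each other.

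**Figure D2:**
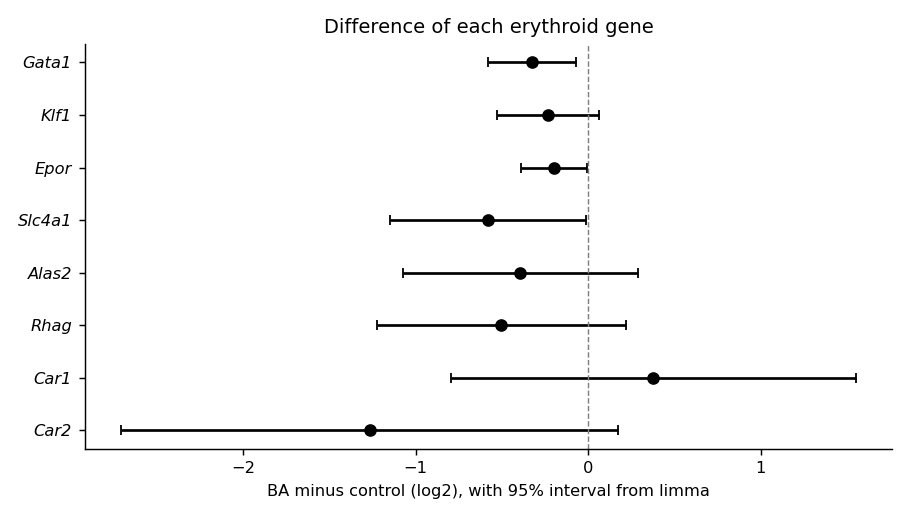
Difference of each erythroid gene, BA minus control on the log2 scale (horizontal axis), as a point with its 95% interval from limma, not adjusted over genes. The intervals of Gata1, Epor and Slc4a1 lie below 0, and those of Klf1, Alas2, Rhag, Car1 and Car2 include 0.

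The arrays that set the differences were not the same for all 8 genes. Gata1, Klf1 and Epor were highest on control replicate 5, and their deviations from the 10-array means stayed between -0.47 and 0.36. Over all genes, control replicate 5 was the highest array for 21.7%. Slc4a1, Alas2 and Car2 were highest on control replicate 2, and Rhag on control replicate 4. Over all genes these were the highest arrays for 6.85% and 6.84%. For 7 of the 8 genes control replicate 2 was among the 3 highest arrays, and its median deviation over the 8 genes was 0.67, while the BA arrays had median deviations from -0.39 to -0.02 and the other control arrays from -0.17 to 0.06. BA replicate 5, the array with the high Ptprc signal, held the lowest value of 4 of the 8 genes, Epor, Slc4a1, Rhag and Car2. The shares of all genes with an array among the 3 highest, or as the lowest, are not given here. Without BA replicate 5 the differences were -0.15 for Epor, -0.53 for Slc4a1, -0.40 for Rhag and -1.11 for Car2, and none of the 8 genes passed.

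**Figure D3:**
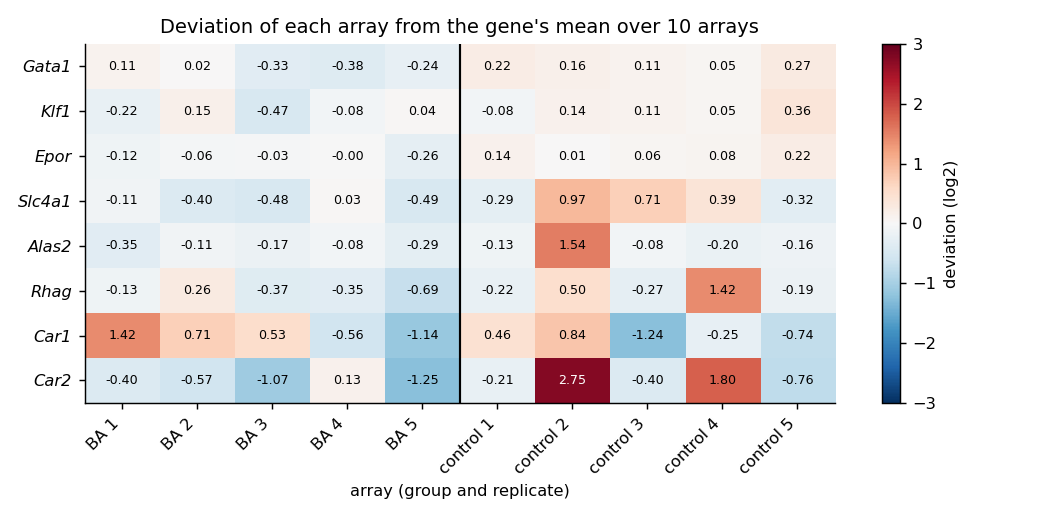
Deviation of each array (columns, BA arrays left of the line and control arrays right of it) from each erythroid gene's mean over the 10 arrays (rows), in log2 units, with red above and blue below the mean. The largest deviation is that of Car2 on control replicate 2, at 2.75, and the rows of Gata1, Klf1 and Epor stay between -0.47 and 0.36.

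Correlations between genes over the 10 arrays were computed for the 28 pairs, with permutation p-values adjusted over the 28. Pearson's r was positive for 25 pairs, with a median of 0.28. The share of positive r over all gene pairs is not given here, and r over the 10 arrays also holds the difference between the groups. Slc4a1 and Car2 were the closest pair, with a Pearson r of 0.800 (permutation p = 0.0118, adjusted 0.222) and a Spearman rho of 0.875 (permutation p = 0.0016, adjusted 0.0442). This was the 1 pair past the threshold by rank, and 0 pairs passed by Pearson's r, with 4 at an unadjusted p under 0.05. Without control replicates 2 and 3, the arrays farthest from the median of Slc4a1, the r of the pair was 0.955. It was 0.524 without the 2 arrays farthest from the median of Car2, 0.616 without control replicate 2 alone, and 0.714 within the groups, after each group's mean was taken out. Rhag and Car2 had an r of 0.77 (permutation p = 0.0191, adjusted 0.222) and a rho of 0.63 (permutation p = 0.0549, adjusted 0.504), and r was 0.874 without control replicate 2 alone and 0.363 without control replicates 2 and 4. Alas2 and Car2 had an r of 0.76 (permutation p = 0.0429, adjusted 0.300) and a rho of 0.48 (permutation p = 0.156, adjusted 0.504). For that pair r was 0.133 without control replicate 2 and BA replicate 1, and 0.122 without control replicate 2 alone. It was 0.455 without the 2 arrays farthest from the median of Car2, and 0.708 within the groups. Each omission lowered r. Slc4a1 and Alas2 had an r of 0.683 (permutation p = 0.0238, adjusted 0.222) and a rho of 0.541 (permutation p = 0.111, adjusted 0.504). Their r was 0.293 without control replicate 2 alone and 0.019 without control replicates 2 and 3. It was 0.412 without control replicate 2 and BA replicate 1, the arrays farthest from the median of Alas2, and 0.615 within the groups.

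**Figure D4:**
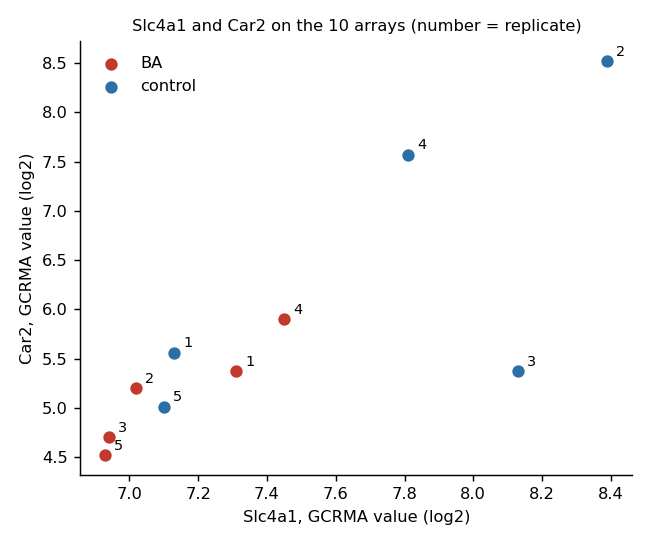
Car2 (vertical axis) against Slc4a1 (horizontal axis), both as GCRMA values on the log2 scale, on the 5 BA arrays in red and the 5 control arrays in blue, labelled with their replicate numbers. Control replicate 2 is highest on both genes, while control replicate 3 is high on Slc4a1, at 8.13, and not on Car2, at 5.37.

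By its r with Slc4a1, Car2 ranked 58 among 19937 genes. The nearest of the other 7 erythroid genes ranked 121 for Rhag and 195 for Alas2. It ranked 1568 for Klf1, 2641 for Epor, 4583 for Car1 and 4601 for Gata1. The genes nearest to the mean standardized profile of the 8 over the 10 arrays were Angel1 (r = 0.961), Nr1h3, the gene of liver X receptor alpha (r = 0.943), and Neurl2 (r = 0.941). The 8 genes themselves had r between 0.27 for Car1 and 0.86 for Car2 with that profile, to which each contributes.

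Erythroid and related genes were taken from 9 lists with 116 genes, of which 103 were measured. Among the 103 were 14 other carbonic anhydrase genes and 9 other SLC4 or Rh family genes, relatives of the members and not all erythroid. None passed the adjusted threshold in limma (0 of 103, lowest adjusted p = 0.281, for Car12). At an unadjusted p under 0.05, 13 of the 103 were lower in BA cells, and 4 were higher, against 5.27% and 4.13% of all genes. The mean was lower in BA cells for 70 of the 103 (68.0%, beside 62.1% of all genes), and their median difference was -0.12. Without control replicate 2 and BA replicate 5, a choice made after seeing the data, 70 were again lower in BA cells (68.0%, beside 61.5% of all genes), and at an unadjusted p under 0.05 there were 8 lower and 5 higher, with 3.84% of all genes lower at that level. Control replicate 2 was the highest array for 10.7% of the 103 and for 6.85% of all genes. The genes named below did not pass, and their differences are given as values.

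Genes of the red cell membrane and its skeleton had the lowest median of the 9 lists, -0.29, with a lower mean in BA cells for 14 of 15 measured genes, 7 of them at an unadjusted p under 0.05. That last count was 4 without control replicate 2, control replicate 3 or BA replicate 5. Of all genes 6.13%, 4.18% and 3.39% in turn were lower at that level, beside 5.27% with every array kept. Without control replicate 2 and BA replicate 5 together the count was 2, beside 3.84% of all genes. The mean was lower for 14 of 15 each time, and for 59.8% to 63.6% of all genes. The groups did not overlap for 3 of the 15, Rhd, Aqp1 and Add2, with the BA arrays lower, as for 1.1% of all genes. They were apart by 0.11 for Rhd, 0.02 for Aqp1 and 0.01 for Add2. Rhd, which encodes the Rh blood group protein that partners with Rhag, had 5.27, 4.87, 4.83, 5.31 and 4.74 on BA replicates 1 to 5, against 6.34, 6.15, 7.96, 5.42 and 5.42 on control replicates 1 to 5. Its control arrays were widely spread, with replicate 3 the highest, and the difference was -1.25 ± 0.43 (adjusted p = 0.482), or -0.83 without that array. Aqp1, a water channel of red cells and of endothelium, lay between 6.32 and 7.07 on BA arrays and between 7.09 and 7.90 on control arrays, with a difference of -0.64 ± 0.19. The differences of the skeleton genes Add2 (beta-adducin) and Ank1 (ankyrin) were -0.29 ± 0.10 and -0.26 ± 0.09.

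Erythroid transcription factors and cofactors had a lower mean in BA cells for 11 of 14 genes, with a median of -0.11. Gata2, the GATA factor of early progenitors and mast cells, differed by -0.32 ± 0.11 and Myb, a factor of progenitor growth, by -0.38 ± 0.14. Genes around the erythropoietin receptor were mixed, with 8 of 13 higher in BA cells and a median of 0.04. Socs2, a cytokine-induced inhibitor of signalling, lay between 8.53 and 9.39 on BA arrays and between 6.69 and 9.16 on control arrays, with a difference of 1.51 ± 0.46. The Socs2 values are those of the brighter of its 2 probe sets, and the other is not given here. Whether that probe set reads Socs2 alone was not tested. Jak2, the kinase bound to the receptor, differed by 1.08 ± 0.44, Stat5b by -0.54 ± 0.23 and the stem cell factor receptor gene Kit by -0.50 ± 0.24. Jak2 differed by 0.64 without control replicate 5, and without control replicate 2 Stat5b differed by -0.34 and Kit by -0.30.

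Haem synthesis genes other than Alas2 had a lower mean in BA cells for 7 of 11, with a median of -0.08, and none reached an unadjusted p under 0.05. Alad, the enzyme after the first step, differed by -0.40 ± 0.24, while Alas1, the form of the first enzyme made in most tissues, differed by 0.28 ± 0.22. Without control replicate 5 the Alad difference was -0.16, and the Alas1 difference was 0.14 without control replicate 2 and 0.16 without BA replicate 5. Of 9 globin genes 3 were measured, the embryonic Hba-x, Hbb-bh1 and Hbb-y, at -0.14 ± 0.12, -0.10 ± 0.12 and -0.07 ± 0.13, and adult globin genes are not analysed here. Single arrays moved these 3 values by over 1.5 times, to -0.07 for Hba-x without BA replicate 4, -0.03 for Hbb-bh1 without control replicate 3 and -0.003 for Hbb-y without BA replicate 5. Iron and haem handling had a median of 0.13, with 7 of 12 higher in BA cells. The transferrin receptor gene Tfrc, which brings iron into growing cells of many kinds, differed by 1.11 ± 0.45, the iron transporter gene Slc11a2 by 0.72 ± 0.34 and the haem-degrading enzyme gene Hmox1 by 0.72 ± 0.35.

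Late maturation genes had a lower mean in BA cells for 10 of 12, with a median of -0.15. Prdx2, a peroxidase abundant in red cells and made by other cells too, had 9.74, 10.26, 10.59, 9.87 and 10.32 on BA replicates 1 to 5, against 11.57, 11.36, 10.51, 10.97 and 11.53 on control replicates 1 to 5. Only control replicate 3 fell within the BA range, and the difference was -1.03 ± 0.23 (adjusted p = 0.384). The Prdx2 values are those of the brighter of its 2 probe sets, and the other is not given here. Whether that probe set reads Prdx2 alone was not tested. Trim58, a ubiquitin ligase of maturing red cells, differed by -0.31 ± 0.15.

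Among the 14 other carbonic anhydrase genes, the 2 with the smallest p, Car12 and Car3, had differences of opposite sign. Car12, a membrane-bound form, had 8.40, 9.20, 8.43, 7.66 and 8.50 on BA replicates 1 to 5, against 6.37, 7.04, 7.14, 7.43 and 6.92 on control replicates 1 to 5. All BA arrays lay above all control arrays, as for 0.567% of all genes, and the difference was 1.46 ± 0.27 (adjusted p = 0.281). Car3, a form of muscle and fat, had 5.91, 5.64, 5.86, 7.53 and 5.38 on the BA arrays, against 7.88, 6.94, 7.73, 7.84 and 8.69 on the control arrays. BA replicate 4 lay within the control range and the other BA arrays below it, with a difference of -1.75 ± 0.42 (adjusted p = 0.384). The median of the 14 was -0.15. The other anion exchanger and Rh family genes had a median of -0.05, with Slc4a4, a sodium bicarbonate cotransporter, at -0.32 ± 0.11.

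**Figure D5:**
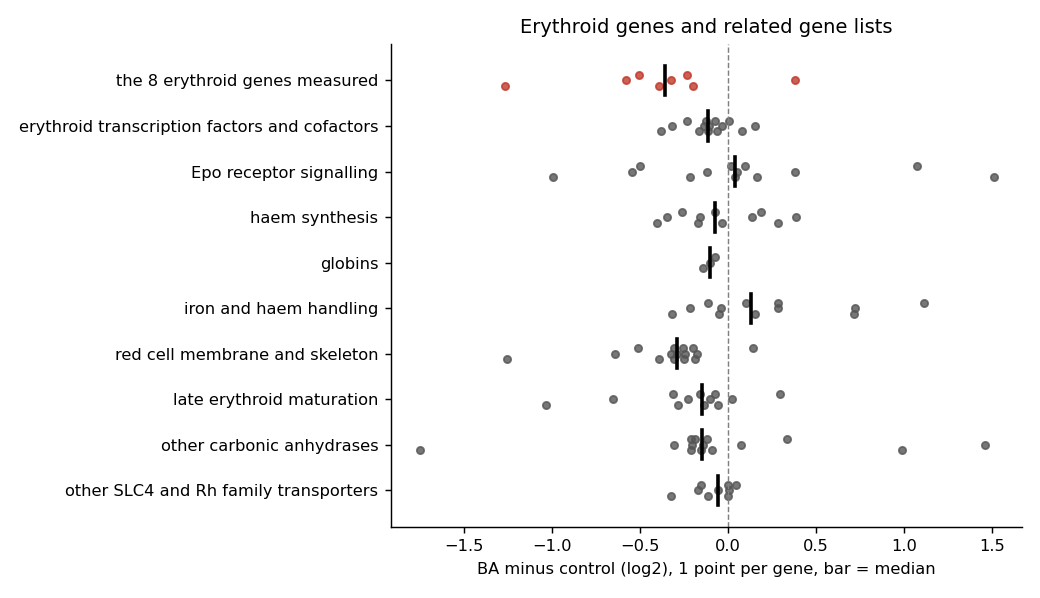
Difference of each gene, BA minus control on the log2 scale (horizontal axis), for the 8 erythroid genes measured (red) and the genes of the 9 related lists (grey), with 1 point per gene and the median of each list as a bar. The median lies at -0.36 for the 8 genes, at -0.29 for membrane and skeleton genes and at 0.13 for iron and haem handling.

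Markers of other cells that use some of these genes are given beside them, as the mean log2 level of a list on each array. Megakaryocyte and platelet genes, a line that shares Gata1, lay between 5.51 and 5.91 on BA arrays and between 5.54 and 5.91 on control arrays, with 7 of 9 measured genes lower in BA cells. Mast cell and basophil genes lay between 4.80 and 5.66 on BA arrays and between 4.98 and 5.22 on control arrays, with 6 of 10 lower and the basophil protease gene Mcpt8 at 1.63 ± 0.56. Osteoclast genes, a line that uses Car2, lay between 6.06 and 6.38 on BA arrays and between 5.97 and 6.28 on control arrays, with 6 of 10 lower. Endothelial genes, a source of Aqp1, lay between 5.40 and 5.56 on BA arrays and between 5.38 and 5.82 on control arrays, with 5 of 8 lower. Macrophage genes lay between 5.63 and 6.31 on BA arrays and between 5.85 and 6.08 on control arrays, with 4 of 12 lower. The part of these 5 cell types in the erythroid values was not tested.

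Pan-haematopoietic genes lay between 6.58 and 8.71 on BA arrays, highest on replicate 5, and between 5.95 and 7.26 on control arrays, highest on replicate 2, with 11 of 14 higher in BA cells. Neutrophil genes lay between 7.09 and 9.58 on BA arrays and between 6.39 and 8.47 on control arrays, again highest on BA replicate 5 and, among control arrays, on replicate 2. With the mean pan-haematopoietic level of each array as a covariate, the 8 erythroid genes kept the sign of their differences, which were -0.32 for Gata1, -0.55 for Slc4a1, -0.55 for Alas2, -0.27 for Rhag and -1.23 for Car2, and none passed. Xist, which coats the silenced X chromosome of female cells, had high values on BA replicates 2, 4 and 5 (10.62 to 10.70) and control replicates 4 and 5 (10.44 and 9.81), and low values on the others (3.85 to 5.08). With Xist as a covariate the X-linked genes Gata1 and Alas2 differed by -0.32 and -0.34.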

How the data were processed

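RNA from 500 to 2300 sorted cells per mouse was amplified and hybridised to Affymetrix Gene ST 1.0 arrays, per the labels' protocols. The values used are those the authors deposited for 35557 probe sets on 10 arrays, on a log2 scale with 2 decimals and with 0 values missing. GCRMA made them, per the submitters' processing notes, which give no version. Base 2 was taken from their range, 1.21 to 13.7. No detection calls were used. The number of arrays limits the precision.

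Of the probe sets, 21789 had 1 symbol in the platform annotation, 1621 had several and 12147 had none listed. Each gene was taken from its brightest probe set by mean. Differences come from limma 3.58.1 run in R 4.3.3 (lmFit and eBayes, two-sided, without covariates), with Benjamini-Hochberg adjustment over 19938 genes, and intervals are at 95%. Replicates are separate mice, per the series' design text. Correlations used 100000 permutations, two-sided. The fit was tested on simulated data.

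The members, gene lists and tests were chosen with earlier results of these data known. The text names all members, and genes of each list from the up to 4 with the smallest p (2 for cell type markers). It also names all 5 osteoblast markers measured, the 3 genes nearest to the members' mean profile, Xist, Ptprc and any gene called. Alternatives tried were quantile normalization, the replicate number as a block, arrays centred on their median, a filter on dim genes, trend and robust eBayes, array weights, all or averaged probe sets, Xist or pan-haematopoietic level as a covariate, and leaving out arrays. Ahsp was not analysed here.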

Additional observations from a re-analysis of the deposited data

Results flagged for a closer look

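Of the 16 sets of 5 arrays formed by the 8 genes in BA and in control cells, 1 held an array far from the others by Dixon's test. Alas2 on control replicate 2 had 7.90, and the other control arrays lay between 6.16 and 6.28. The gap to the next array was 0.931 of the group's range, above the critical value of 0.71. Chance gives a gap above that critical value in about 5% of sets.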

How the results depend on the processing

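None of the 8 erythroid genes passed under any of the 22 alternatives, or the 21 that tested Klf1, Rhag and Car2 (adjusted p from 0.329 for Gata1 without BA replicate 1 to 0.953 for Rhag without control replicates 2 and 4). All 8 kept the sign of their difference under each, but some differences came close to 0. Rhag was at -0.03 without control replicates 2 and 4, and Alas2 at -0.035 without control replicate 2 and BA replicate 5. The median difference of the 8 lay between -0.40 and -0.20. Among genes with a mean above the median 5 of the 8 remained, 4 of them with a lower mean in BA cells. The number of genes called higher in BA cells was 0 with the replicate block, 0 with the filter on dim genes, 2 with Xist and 0 with the pan-haematopoietic level as a covariate. Leaving out arrays gave between 0 and 12, with 12 without BA replicate 4, 2 without control replicate 4 or BA replicate 1, and 0 on omitting 1 of control replicates 2 and 5 and BA replicates 3 and 5. The number called lower was between 0 and 1 on leaving out arrays, with 1 without BA replicate 4. Hbb-bh1 changed sign to 0.0002 with quantile normalization, and Hbb-y to 0.0029 there. On leaving out arrays Hbb-y lay between -0.168, without BA replicate 1, and 0.015, without control replicate 2 and BA replicate 5. The causes were not tested. Leaving out those pairs of arrays was added after seeing the data. Arrays with the same replicate number shared only a number, with correlations of their deviations from -0.10 to 0.11 and 1 of 5 BA arrays closest to its own number, and the replicate block left the 8 genes not called (adjusted p from 0.562 to 0.727), with 2 of them, Gata1 and Car2, at an unadjusted p under 0.05.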
